A study of Mus musculus with 7 samples.

Results

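Genes of the granulocyte and monocyte programme were examined in haematopoietic stem cells sorted from mouse fetal livers at embryonic day 14.5. The 10 genes were chosen by name, as myeloid regulators and genes of primary granule proteins: Mpo, Prtn3, Elane, Ctsg, Spi1, Cebpa, Cebpe, Lyz2, Csf1r and Csf3r. Every probe set annotated to 1 of them alone was taken. This gave 11 probe sets for 9 of the 10 genes, out of 22626 probe sets and 12393 genes. Csf1r had 3 probe sets and the other 8 genes 1 each. Cebpe was named alone by no probe set and was not analysed here.

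Embryos of one genotype were TFIIAα-β nc/nc, homozygous for a form of the large TFIIA subunit that the protease Taspase1 cannot cut, here called TFIIA nc/nc (3 arrays). Wild-type embryos gave the other 4 arrays, and both genotypes came from crosses of TFIIAα-β nc/+ parents. The labels name no promoter or cell type that would limit the change to blood cells. TFIIA nc/nc replicates 1, 2 and 3 held 2, 2 and 4 embryos and wild-type replicates 1 to 4 held 1, 1, 4 and 3. The labels give no treatment other than the staining and sort. The stem cells were sorted as lineage-negative, Sca-1 and c-Kit positive, CD150 positive cells. The lineage antibodies included Gr-1, a granulocyte antigen, and the labels list none to a macrophage or endothelial antigen. Nothing in the labels says whether the samples of 1 genotype came from separate litters, so the p-values measure the spread between these samples.

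Blood stem cells transcribe some genes of the myeloid line before they commit to it, which is known as lineage priming. Spi1 encodes PU.1, an ETS factor that binds the control regions of most myeloid genes, and C/EBPα, the product of Cebpa, acts with it to open the granulocyte path. The receptors for M-CSF (Csf1r) and G-CSF (Csf3r) carry the signals for monocytes and neutrophils. Mpo, Prtn3, Elane and Ctsg encode the peroxidase and serine proteases that promyelocytes pack into primary granules, and Lyz2 encodes the lysozyme of granulocytes and macrophages.

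RefSeq promoter windows on GRCm38.p6, each of 300 bases with 250 before and 50 after the gene's start, were present for 7 of the 10 genes. Prtn3 and Elane are neighbours on chromosome 10 with no protein-coding gene between them in the gene order of that assembly. Their windows are shown because, by 1 probe set each, Prtn3 gave a strong signal and Elane a dim one. That contrast may lie in the probes, and its cause was not tested. The windows of Mpo and Lyz2 are shown because these were the other granule and lysozyme genes of strong signal. Capitals mark GAGGAA, a core that PU.1 can bind, TTNNGNAA, a C/EBP core, and TGTGGT, a Runx core, each on either strand (ACCACA is TGTGGT read on the other strand), and no marked matches overlap.
Prtn3 (chr10:79879417-79879716, plus strand): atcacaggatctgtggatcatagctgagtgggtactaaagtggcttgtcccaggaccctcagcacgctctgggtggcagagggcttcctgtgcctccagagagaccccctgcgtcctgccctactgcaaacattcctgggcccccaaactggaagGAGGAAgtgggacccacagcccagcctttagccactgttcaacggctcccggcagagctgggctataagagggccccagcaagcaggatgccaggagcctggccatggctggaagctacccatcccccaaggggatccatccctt
Elane (chr10:79886062-79886361, plus strand): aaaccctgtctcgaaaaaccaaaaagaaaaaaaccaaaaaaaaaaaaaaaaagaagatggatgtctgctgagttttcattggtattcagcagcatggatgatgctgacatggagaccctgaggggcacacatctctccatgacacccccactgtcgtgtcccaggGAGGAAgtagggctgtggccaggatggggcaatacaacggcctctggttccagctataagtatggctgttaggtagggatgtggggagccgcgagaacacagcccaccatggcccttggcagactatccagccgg
Mpo (chr11:87793534-87793833, plus strand): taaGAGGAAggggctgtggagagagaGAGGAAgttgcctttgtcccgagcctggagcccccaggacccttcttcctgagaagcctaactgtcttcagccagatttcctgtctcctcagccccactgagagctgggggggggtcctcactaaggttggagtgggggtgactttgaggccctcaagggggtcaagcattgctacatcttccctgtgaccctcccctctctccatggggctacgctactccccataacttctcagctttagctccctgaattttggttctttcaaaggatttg
Lyz2 (chr10:117282223-117282522, minus strand): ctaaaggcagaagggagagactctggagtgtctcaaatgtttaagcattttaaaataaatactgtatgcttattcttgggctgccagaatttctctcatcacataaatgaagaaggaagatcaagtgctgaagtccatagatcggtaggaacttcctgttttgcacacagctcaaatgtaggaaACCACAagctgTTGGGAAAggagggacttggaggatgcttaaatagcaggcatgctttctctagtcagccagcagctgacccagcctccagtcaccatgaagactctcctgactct

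GAGGAA occurred in the windows of Mpo, Prtn3, Elane, Ctsg and Csf3r and not in those of Lyz2 and Cebpa, against 28.3% of 32851 promoter windows of all genes. It began 95 bases before the start of Prtn3, 85 before that of Elane and 86 before that of Csf3r, and Mpo held 2 copies. Lyz2 held 1 match to TTNNGNAA, found in 40.7% of all windows, and 1 to TGTGGT, found in 16.8%. TGTGGT also occurred in the Ctsg window. TTGCNNAA, another C/EBP core, was in none of the 7 windows and in 10.8% of all. The short Myb core AACNG was in each of the 7 and in 80.3% of all. These matches describe letters only.

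Before the comparison, the arrays were checked. Their median log2 intensity was 3.69 to 3.82, and a gene is called dim where its mean over the 7 arrays lay below the median of all values. Probes of different genes bind with different strength, so calling a signal strong or dim does not rank the expression of different genes. Of the 16 sort and identity genes of stem cells 12 were measured, 1 of them dim, with a mean log2 level of 6.84 to 7.17 in TFIIA nc/nc and 6.92 to 7.34 in wild type. Kit, the c-Kit gene, read 7.501 to 8.18 in TFIIA nc/nc and 7.61 to 9.06 in wild type, and Slamf1, which encodes CD150, 6.23 to 6.92 in TFIIA nc/nc and 6.12 to 6.57 in wild type. Endothelial transcripts split the arrays. Averaged over 16 genes they read 6.53 (replicate 1), 6.99 (replicate 2) and 4.36 (replicate 3) in TFIIA nc/nc, against 6.68 (replicate 1) and 4.31 to 4.49 (the other 3) in wild type.

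None of the 9 measured genes passed the threshold of 0.05 for the adjusted p. On the log2 scale, the TFIIA nc/nc mean minus the wild-type mean was −1.01 for Prtn3, −0.82 for Lyz2 and for Spi1, and −0.44 for Mpo. It lay nearer to 0 for Csf3r, Ctsg, Elane and Cebpa and was 0.45 for Csf1r. In limma over all genes 0 of 9 members passed, against 0.00807% of genes (1 of 12393). At an unadjusted p under 0.05, 3 of 9 were lower and 0 higher in TFIIA nc/nc, against 2.53% and 2.12% of genes. The median difference of the 9 was −0.23 and that of all genes −0.01, with 7 of 9 and 51.9% of genes below 0. In 1 of the 9, Prtn3, all TFIIA nc/nc values lay below all wild-type values, against 3.07% of genes. Fewer cells of a type and less RNA per cell cannot be told apart in these pooled sorts.

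Prtn3, the gene of the neutrophil serine protease proteinase 3 (Entrez gene 19152), had log2 levels of 7.72, 7.88 and 8.05 in TFIIA nc/nc replicates 1 to 3, against 8.11, 8.71, 9.34 and 9.43 in wild-type replicates 1 to 4. The groups did not overlap, but TFIIA nc/nc replicate 3 and wild-type replicate 1 lay close to each other, and wild-type replicates 3 and 4 stood well above every other array. TFIIA nc/nc averaged 7.88 ± 0.17 (SD, n = 3) and wild type 8.90 ± 0.62 (SD, n = 4). The difference was −1.01 (SE 0.30, interval −1.69 to −0.34), a signal 0.495 times that of wild type (limma, Benjamini-Hochberg adjusted p = 0.934).

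Mpo, the gene of myeloperoxidase (Entrez gene 17523), read 8.21, 8.71 and 8.24 in TFIIA nc/nc, against 8.47, 8.31, 9.21 and 9.33 in wild type. Wild-type replicates 1 and 2 lay among the TFIIA nc/nc values and replicates 3 and 4 above them. TFIIA nc/nc averaged 8.39 ± 0.28 (SD, n = 3) and wild type 8.83 ± 0.52 (SD, n = 4), a difference of −0.44 (SE 0.27, limma adjusted p = 0.934).

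The other serine proteases of the primary granule were dim on every array. Elane, the gene of neutrophil elastase, read 2.88, 2.74 and 2.83 in TFIIA nc/nc, against 3.03, 2.93, 2.92 and 2.79 in wild type. Its groups overlapped and showed little spread in either genotype. Ctsg, the gene of cathepsin G, read 2.63, 2.42 and 2.02 in TFIIA nc/nc, against 1.98, 2.47, 2.64 and 2.86 in wild type. The differences were −0.10 (SE 0.13) for Elane and −0.13 (SE 0.23) for Ctsg (limma adjusted p = 0.95 and 0.964). RMA compresses differences between dim probe sets, so a change in these genes may not be detectable here.

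Lyz2 (Entrez gene 17105) read 7.17, 7.65 and 7.91 in TFIIA nc/nc, against 7.90, 8.32, 8.86 and 8.50 in wild type. The groups touched, with TFIIA nc/nc replicate 3 just above wild-type replicate 1. TFIIA nc/nc averaged 7.58 ± 0.38 (SD, n = 3) and wild type 8.40 ± 0.40 (SD, n = 4). The difference was −0.82 (SE 0.25, interval −1.38 to −0.25; limma adjusted p = 0.934). Lyz1, its close paralogue in the mouse, differed by −0.48 (SE 0.22), and binding of one gene's transcript to the other's probes was not tested.

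**Figure D1:**
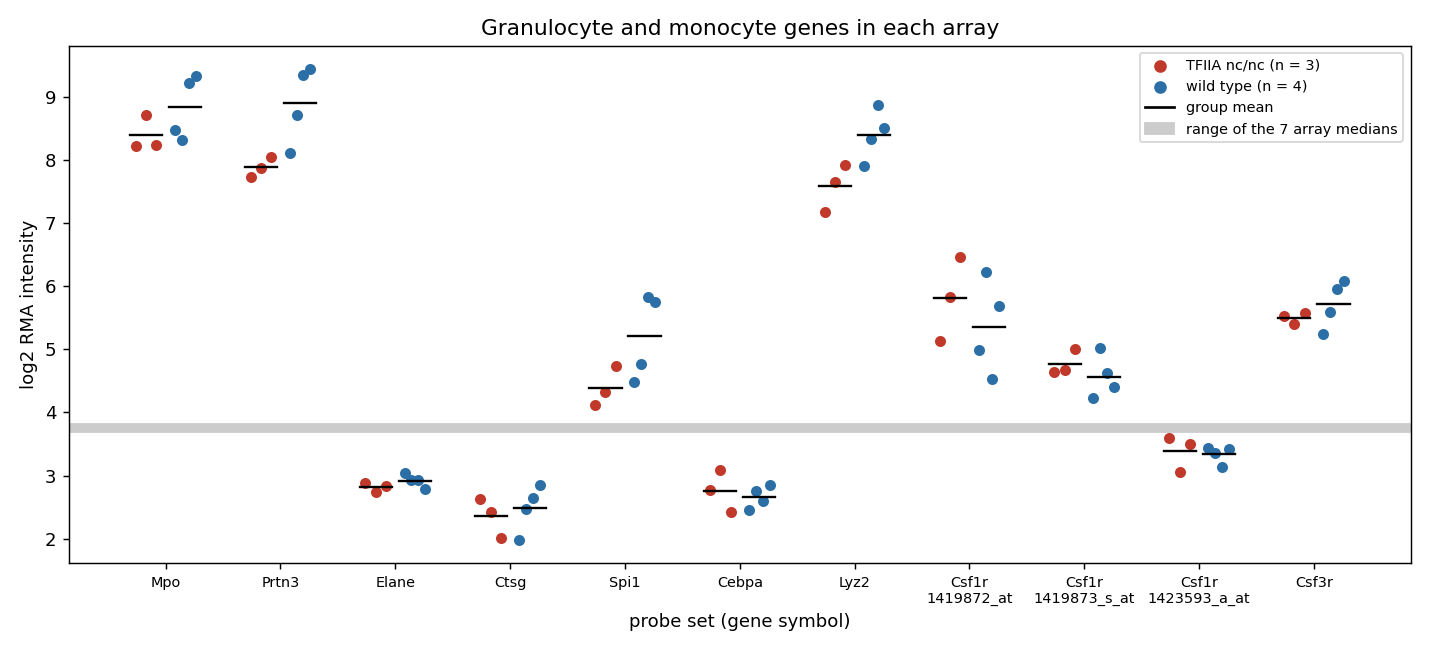
Log2 RMA intensity (vertical axis) of the 11 probe sets (horizontal axis) in each of 3 TFIIA nc/nc and 4 wild-type arrays, with group means as bars and the range of the array medians as a grey band. Prtn3 is the gene whose groups do not overlap, while Elane, Ctsg and Cebpa lie below the band on every array.

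Among the regulators, Spi1 (Entrez gene 20375) read 4.11, 4.32 and 4.74 in TFIIA nc/nc, against 4.48, 4.77, 5.82 and 5.75 in wild type. Wild-type replicates 3 and 4 again stood about 1 log2 unit above the rest, and wild-type replicate 1 lay below TFIIA nc/nc replicate 3. TFIIA nc/nc averaged 4.39 ± 0.32 (SD, n = 3) and wild type 5.21 ± 0.68 (SD, n = 4). The difference was −0.82 (SE 0.34, interval −1.58 to −0.05; limma adjusted p = 0.934). Cebpa, the gene of C/EBPα, was dim, at 2.77, 3.09 and 2.42 in TFIIA nc/nc, against 2.45, 2.76, 2.60 and 2.86 in wild type. Its groups overlapped fully, with a difference of 0.09 (SE 0.19, limma adjusted p = 0.968).

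Of the receptors, Csf3r read 5.52, 5.39 and 5.57 in TFIIA nc/nc, against 5.25, 5.60, 5.96 and 6.09 in wild type. The TFIIA nc/nc values lay close together inside the wild-type range, and the difference was −0.23 (SE 0.21, limma adjusted p = 0.934). Csf1r read 5.13, 5.83 and 6.47 in TFIIA nc/nc, against 4.99, 6.23, 4.53 and 5.68 in wild type, by its brightest probe set. This gene varied as much within each genotype as between them, averaging 5.81 ± 0.67 (SD, n = 3) for TFIIA nc/nc and 5.36 ± 0.75 (SD, n = 4) for wild type. The difference was 0.45 (SE 0.42, limma adjusted p = 0.934). The other Csf1r probe sets, fitted among all probe sets, of which 0.00442% passed, differed by 0.20 and, for a dim one, by 0.05, with limma adjusted p = 0.984 and 0.985.

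**Figure D2:**
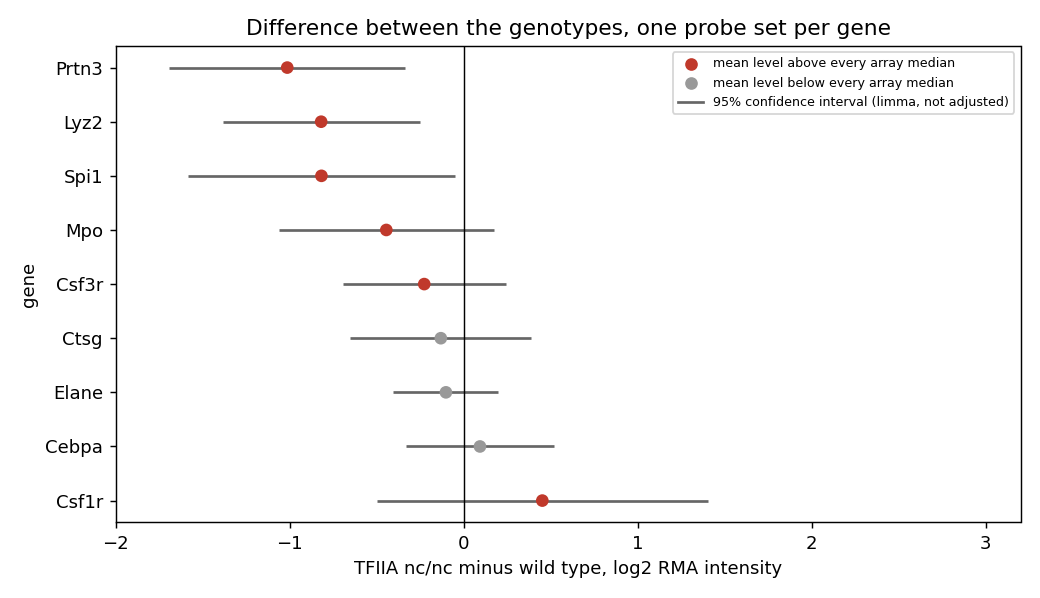
Difference of TFIIA nc/nc minus wild type in log2 RMA intensity (horizontal axis) for the 9 measured genes (vertical axis), with limma's 95% confidence interval before adjustment. The intervals of Prtn3, Lyz2 and Spi1 lie below 0 and the other 6 cross it.

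The wild-type arrays differed among themselves at these genes. In 6 of the 9, Mpo, Prtn3, Ctsg, Spi1, Lyz2 and Csf3r, wild-type replicates 3 and 4 were the 2 highest of the 7 arrays, an order seen in 9.2% of genes and noticed after the values were seen. These replicates were pools of 4 and 3 embryos, and wild-type replicates 1 and 2 were single embryos. The pooled wild-type arrays averaged 9.27 for Mpo, 9.39 for Prtn3, 5.79 for Spi1, 8.68 for Lyz2 and 6.02 for Csf3r. The single-embryo wild-type arrays averaged 8.39 for Mpo, 8.41 for Prtn3, 4.62 for Spi1, 8.11 for Lyz2 and 5.42 for Csf3r. The single-embryo arrays also gave a low signal of Xist, which coats the inactive X chromosome, at 4.49 and 4.47, against 9.76 to 11.4 in the other 5, all pools. Pool size, embryo sex and other differences between these wild-type samples cannot be told apart.

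Against the single-embryo wild-type arrays alone, the TFIIA nc/nc mean differed by −0.0027 for Mpo, −0.52 for Prtn3, −0.23 for Spi1, −0.53 for Lyz2 and 0.07 for Csf3r. Against the pooled ones it differed by −0.89 for Mpo, −1.50 for Prtn3, −1.40 for Spi1, −1.10 for Lyz2 and −0.53 for Csf3r. In the 5 pooled samples, TFIIA nc/nc lay wholly below wild type in 6 of the 9 genes, against 13.8% of all genes. These were the same 6 genes in which wild-type replicates 3 and 4 were the 2 highest arrays. Those replicates are the pooled wild-type samples, so the count follows from that order and is no further result. In a limma fit of the 5 pooled samples none of the 9 passed (lowest adjusted p = 0.0657, for Prtn3). Prtn3, Lyz2 and Spi1 averaged lower in TFIIA nc/nc against both sets of wild-type arrays, by unequal amounts. So did Mpo, though by only −0.0027 against the single-embryo arrays, and the dim Elane, by −0.04 against the pooled and −0.16 against the single-embryo arrays.

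Within the 4 arrays of low endothelial signal, 1 TFIIA nc/nc sample and 3 wild-type samples, the differences were −1.11 for Prtn3, −0.71 for Mpo, −0.71 for Spi1 and −0.65 for Lyz2. Within the 3 arrays of high endothelial signal, 2 TFIIA nc/nc samples and 1 wild-type sample, they were −0.31 for Prtn3, −0.01 for Mpo, −0.26 for Spi1 and −0.49 for Lyz2. Elane differed by −0.05 in the low-signal arrays and by −0.23 in the high-signal ones, and Csf1r by 0.99 and 0.49. The sign was not the same in both sets for Csf3r, at −0.31 in the low-signal and 0.21 in the high-signal arrays, nor for the dim Ctsg, at −0.64 and 0.54, and Cebpa, at −0.32 and 0.48. In the low-signal arrays the lone TFIIA nc/nc value lay below every wild-type value in 7 of the 9 genes and above in 1, Csf1r, against 20.8% and 22.9% of all genes. The 7 were Cebpa and the 6 genes in which wild-type replicates 3 and 4 were the 2 highest arrays. For those 6 the count rests on that order, noticed after the values were seen, and on wild-type replicate 2. Against replicate 2 the gap was narrow for Spi1 (4.74 against 4.77), Csf3r (5.57 against 5.60) and Mpo (8.24 against 8.31). It was wider for Prtn3, Lyz2 and Ctsg. A limma fit of those 4 arrays, in which the lone sample is assumed to vary like the wild-type ones, passed none of the 9 (lowest adjusted p = 0.9996). The 3 high-signal arrays were not fitted.

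**Figure D3:**
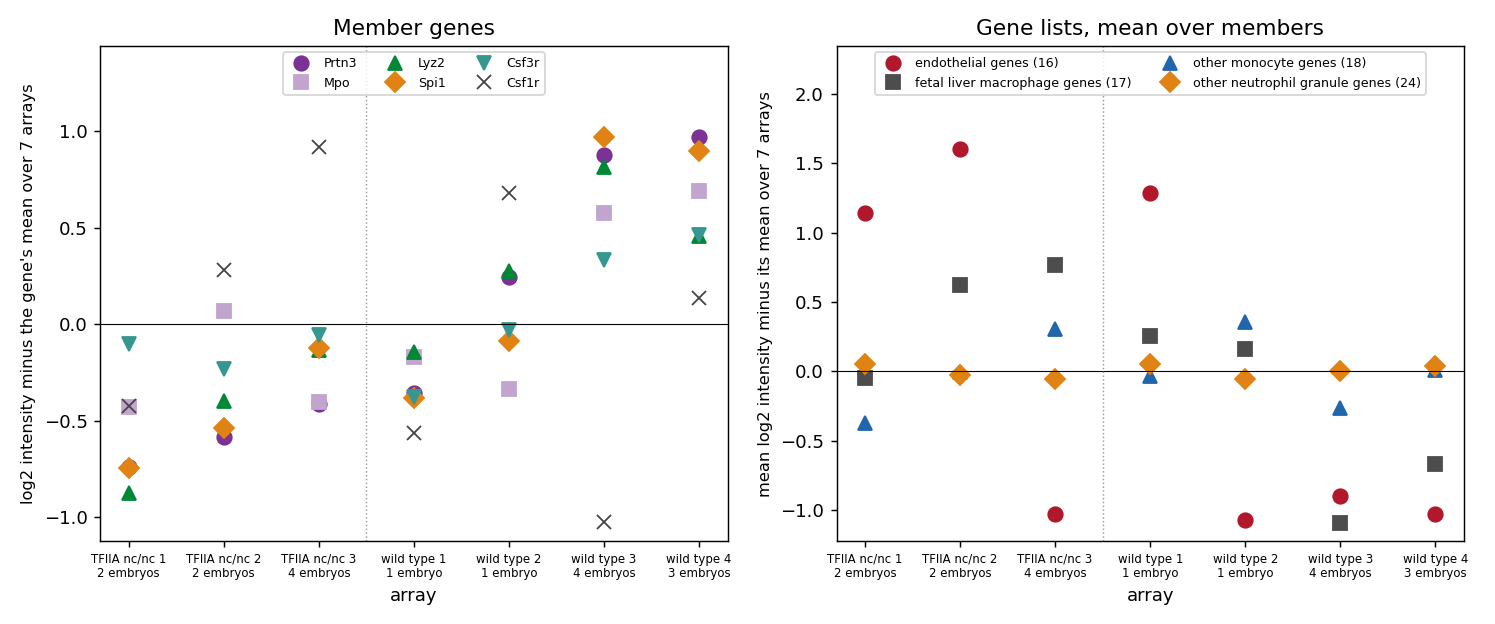
Log2 RMA intensity of 6 member genes (left) and mean log2 intensity of 4 gene lists (right), each minus its own mean over the 7 arrays, by array, with the number of embryos in each sample. Prtn3, Mpo, Lyz2, Spi1 and Csf3r are highest in wild-type replicates 3 and 4, where the macrophage list is lowest.

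Macrophage transcripts also varied between the arrays. The mean of 17 measured genes of fetal liver macrophages was 3.61, 4.28 and 4.43 in TFIIA nc/nc, against 3.92, 3.83, 2.57 and 2.99 in wild type. By this mean the lowest arrays were wild-type replicates 3 and 4, which were the highest for Mpo, Prtn3, Spi1 and Lyz2. Csf1r, also a macrophage gene, was by its brightest probe set highest in TFIIA nc/nc replicate 3, the array with the highest macrophage mean, and lowest in wild-type replicate 3, the array with the lowest. Its other probe sets did not follow that order. The next brightest was highest in wild-type replicate 2 and lowest in wild-type replicate 1, and the dim one highest in TFIIA nc/nc replicate 1 and lowest in TFIIA nc/nc replicate 2. Of the 17 genes 9 were dim, and the Kupffer cell markers Clec4f and Vsig4 read at most 2.76 and 2.32 on any array. Some genes of the list, such as Mrc1 and Vcam1, are also made by sinusoidal endothelium. They read 8.62 and 5.17 in TFIIA nc/nc replicate 1, against 3.19 and 2.07 in wild-type replicate 4. C1qa, C1qb, C1qc and Adgre1 went the other way, at 2.24, 3.43, 2.13 and 3.11 against 3.50, 4.47, 3.06 and 3.48. Of the rest, most read higher in TFIIA nc/nc replicate 1, so the mean does not carry every gene's order. In 15 of 17 the difference between the genotypes was above 0, against 5955 of all 12393 genes, with a median of 0.43. Lgmn, a lysosomal protease, differed by 1.83, the adhesion molecule Vcam1 by 2.00 and the haem oxygenase Hmox1 by 1.14. None of the 17 passed in limma, while 3 had an unadjusted p under 0.05, all higher, against 2.12% of all genes. The part of these cells in the Csf1r and Lyz2 values was not tested.

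Other genes of the same programme were compared through lists. Over all genes, 4.65% had an unadjusted p under 0.05 in limma, the share to set beside the counts of each list. Of 19 measured myeloid transcription regulators, 0 passed in limma over all genes and 2 had an unadjusted p under 0.05, both lower, with a median difference of 0.01. Gfi1, a repressor needed for neutrophils, read 5.75, 6.17 and 6.73 in TFIIA nc/nc, against 6.35, 7.33, 7.23 and 7.04 in wild type (difference −0.77, SE 0.29). Nab2, a partner of the EGR factors, differed by −0.48 and was dim, and Egr1, an immediate early factor linked to the monocyte path, by 1.14 (SE 0.51). Egr1 was high in the arrays of high endothelial signal, at 5.81 and 5.65 in TFIIA nc/nc and 5.90 in wild type. In those of low endothelial signal it read 5.08 in TFIIA nc/nc and 4.36, 3.79 and 3.44 in wild type. Cebpb, the C/EBP factor of emergency granulopoiesis and picked here after its values were seen, read 5.17, 5.74 and 6.21 in TFIIA nc/nc, against 5.53, 6.18, 7.0 and 7.03 in wild type. Like Spi1, it was highest in wild-type replicates 3 and 4, and its difference was −0.73 (SE 0.38). Irf8, the regulator of the monocyte path, was dim and differed by −0.09, and Runx1, which acts with PU.1, by 0.28.

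Of 12 other growth factor receptors of the myeloid line, 0 passed and 1 had an unadjusted p under 0.05. This was Flt3, the receptor of early multipotent progenitors, at 5.40, 5.72 and 5.75 in TFIIA nc/nc, against 5.99, 6.08, 6.60 and 6.90 in wild type. Its groups did not overlap, with TFIIA nc/nc below, as in 3.07% of all genes (difference −0.77, SE 0.23, limma adjusted p = 0.934). Flt3 too was highest in wild-type replicates 3 and 4. Csf2ra and Il3ra, the ligand-binding chains of the GM-CSF and IL-3 receptors, were dim and differed by −0.36 and −0.41. The median of the list was −0.07.

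Of 24 other measured genes of neutrophil granules and the neutrophil oxidase, 17 were dim, 0 passed and 1 had an unadjusted p under 0.05, with a median difference of −0.01. Genes of later granule proteins were among the dim ones. The secondary granule genes Ltf, Camp, Ngp and Lcn2 read at most 3.04 on any array, and the cytosolic calprotectin genes S100a8 and S100a9 at most 2.43. The 3 genes of smallest p were Gstm1, a glutathione transferase, at −0.40 (SE 0.17), Itgam, the integrin CD11b, at −0.39 and dim, and Nkg7 at 0.33. Srgn, the granule proteoglycan serglycin, was bright in both genotypes and differed by −0.19.

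Of 18 other measured monocyte genes, 0 passed and 0 had an unadjusted p under 0.05, with a median of −0.04. Lyz1 differed by −0.48, the calcium-binding protein gene S100a4 by −0.54 and the chemokine receptor gene Ccr2, dim, by −0.22. Of 9 measured genes of mast cells, basophils and eosinophils 7 were dim, 0 passed and 1 had an unadjusted p under 0.05, with a median of 0.00372. The mast cell protease gene Cpa3 was not dim, at 7.503, 7.26 and 7.09 in TFIIA nc/nc, against 6.96, 6.35, 6.46 and 6.89 in wild type. All 3 TFIIA nc/nc values lay above the wild-type ones, as in 3.23% of all genes (difference 0.62, SE 0.20, limma adjusted p = 0.934). The direction was opposite to that of Prtn3. The IgE receptor chain Fcer1a and granzyme B, Gzmb, were dim and differed by −0.24 and 0.21.

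**Figure D4:**
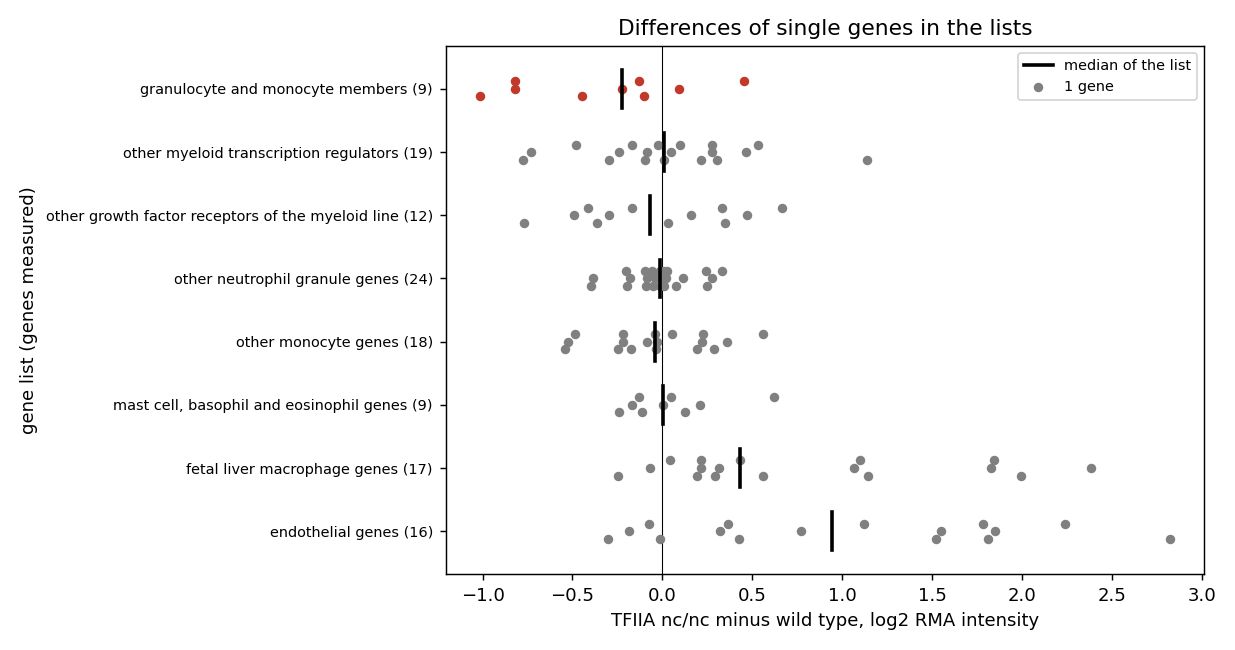
Difference of TFIIA nc/nc minus wild type in log2 RMA intensity (horizontal axis) of every measured gene in 8 gene lists (vertical axis), with the list's median as a bar. The median is −0.23 for the granulocyte and monocyte members and between −0.07 and 0.01 for the other myeloid lists, and 0.43 and 0.95 for the macrophage and endothelial lists.

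In the lists of other cell types 0 genes passed in limma as well. An unadjusted p under 0.05 was found for 0 endothelial, 4 liver, 1 erythroid, 1 lymphoid and 2 stem cell genes, against 4.65% of all genes. The median difference was 0.95 for 16 endothelial genes, 0.47 for 12 liver genes, −0.03 for 10 erythroid genes, −0.05 for 13 lymphoid genes and −0.18 for 12 genes of stem cells. Members of smallest p were Plvap at 1.78, Cdh5 at 1.85 and Stab2 at 2.24 in endothelium. In liver they were the dim Ahsg and Apoa1 at 0.47 and 0.94, and Krt18 at −0.58. In the erythroid list they were the transferrin receptor Tfrc at 0.71, the dim Hba-a1 at −0.33 and Ermap at 0.91. In the lymphoid list they were Satb1 at −0.78 and the dim Ebf1 and Igll1 at −0.43 and −0.33. In the stem cell list they were the surface receptor Procr at −0.77, the factor Hlf at −0.49 and Cd48, not a marker of this sort, at 0.30.

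Genes with array profiles like the mean of Mpo, Prtn3, Elane and Ctsg, or like Spi1, were sought as a description. The search covered 3922 other genes with a mean log2 level of at least 6, by Pearson's r over the 7 arrays. Elane was nearly flat, at 2.74 to 3.03, and highest in wild-type replicate 1, so the mean does not carry its order. Closest to the mean of Mpo, Prtn3, Elane and Ctsg were Cnn2, an actin-binding calponin (r = 0.99), the interferon-induced membrane protein gene Ifitm3 (0.978), Pnrc1 (0.976), the inositol phosphate kinase gene Ip6k1 (0.972) and Trmt112 (0.971). Ifitm3 read 7.75, 7.83 and 7.94 in TFIIA nc/nc, against 8.04, 8.53, 9.31 and 9.42 in wild type. Its groups did not overlap and wild-type replicates 3 and 4 were highest, but it was chosen for likeness to that mean. Closest to Spi1 were Phpt1 (0.99), Stxbp2, a syntaxin partner in granule release (0.987), Psme1, a proteasome activator subunit (0.985), Cxxc5 (0.976) and Ist1 (0.975). Phpt1 read 6.95, 6.85 and 7.38 in TFIIA nc/nc, against 7.17, 7.40, 8.52 and 8.35 in wild type. All 7 arrays enter each r, so the step between wild-type replicates 3 and 4 and the rest weighs on it.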

How the data were processed

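Per the submitters' processing notes, the authors used Affymetrix Expression Console and RMA, and the deposited table holds the resulting intensities. Versions were not given in the sources used here. The values lay on a linear scale, so log2 was taken with no pseudocount. Of 22690 probe sets, 64 controls were left out. Of the other 22626, 20380 had 1 gene symbol in the platform annotation, 691 several and 1555 none. Symbols were updated through Entrez identifiers with a RefSeq table of GRCm38.p6 (12369 of 12393 genes matched). Each gene was represented by its brightest probe set. TFIIA nc/nc (n = 3) and wild type (n = 4) were compared in R 4.3.3 by limma 3.58.1 (lmFit, eBayes) without covariates, over 12393 genes and, for the other Csf1r probe sets, over 22626 probe sets. P-values were 2-sided and adjusted by Benjamini-Hochberg, with a threshold of 0.05. Intervals are 95% and not adjusted. The fit was also tested on simulated data, the outcome of which is not reported here.

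The members, the gene lists and the settings were chosen with earlier results of these data known. All members were named, and up to 3 genes of smallest p in each other list. The 5 genes most like the mean of Mpo, Prtn3, Elane and Ctsg, and the 5 most like Spi1, were also named. Genes said to be picked after their values were seen, and the markers, dim genes and regulators named for their role, fall outside that rule. Alternatives covered the probe set, dim-signal filters, a pseudocount of 16, normalization, moderation, array weights, covariates, subsets of samples, the replicate number and leaving out each array. Scan dates and detection calls were not used here. The number of arrays limits the precision. Python 3.11.15 and matplotlib 3.10.9 drew the figures.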

Additional observations from a re-analysis of the deposited data

How the results depend on the processing

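No member passed the threshold under any of the 15 other settings or without any 1 array. Over these settings the difference ranged from −1.50 to −0.74 for Prtn3, −1.10 to −0.59 for Lyz2, −1.40 to −0.52 for Spi1, −0.89 to −0.23 for Mpo, −0.53 to −0.07 for Csf3r and 0.24 to 0.99 for Csf1r. Without 1 array it ranged from −1.28 to −0.84 for Prtn3, −0.99 to −0.62 for Lyz2, −1.06 to −0.61 for Spi1, −0.62 to −0.28 for Mpo, −0.38 to −0.10 for Csf3r and 0.12 to 0.79 for Csf1r. The members that turned direction, Cebpa and Ctsg, were dim, and the cause was not tested. Cebpa turned with the 4 arrays of low endothelial transcripts (−0.32) and without TFIIA nc/nc replicate 2 (−0.073; up to 0.26 without other arrays), and Ctsg without TFIIA nc/nc replicate 3 (0.038; down to −0.30). The count of members wholly below wild type was 1 of 9 (3.07% of all genes). It was 7 with the 4 arrays of low endothelial transcripts (20.8% of all genes), with 1 above (22.9%). Save for Cebpa, those genes are counted there in part through the order of the wild-type arrays described above. With pooled samples only the count was 6 (13.8%), which follows from that order. It was 4 without wild-type replicate 1 (6.51%), 3 without TFIIA nc/nc replicate 3 (6.86%), and 2 without TFIIA nc/nc replicate 2 (4.81%) or wild-type replicate 4 (6.81%). With quantile normalization it was 3 (3.91%) and with cyclic loess 2 (3.74%). Fewer arrays raise the share among all genes. Filters at the median and at a log2 level of 6 left 6 and 3 members. Of all genes 1 passed; 0 passed with the filter of 6 and by ordinary least squares, 2 with the number of embryos as covariate and with the 4 arrays of low endothelial transcripts, 3 with pooled samples only, and 1 to 3 when an array was left out, with 3 without wild-type replicate 1. Of all probe sets 1 passed, and 1 to 2 when an array was left out, with 2 without wild-type replicate 3. With the replicate number as a block 1 gene and 1 probe set passed and no member. Deviations of same-numbered samples from their group means correlated at 0.382, −0.193 and 0.105 over genes. Samples of unlike number ranged from −0.548 to 0.384. Deviations within a group sum to 0, so these values cannot show whether the numbers pair the samples.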
